A study of Homo sapiens with 9 samples.

Results

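Interferon-stimulated genes outside the OAS family were followed in Cal-27 cells, an established human line of tongue squamous carcinoma labelled wild type. They were chosen by name, and all 43 listed symbols were among the 16366 genes of the deposited table. Exosomes are small vesicles that cells release. One group of cells was kept for 48 h with CAF exosomes, which come from cancer-associated fibroblasts, and another for the same time with hOMF exosomes, an abbreviation that the labels leave unexplained and also write as hMOF. The third group is a normal control, for which no sham treatment is described. Each group held 3 libraries of poly(A) RNA from this 1 line. The labels call them replicate samples but name no separate cultures, and p-values here reflect nothing beyond the scatter of these samples, which may be technical.

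Interferons are secreted proteins that warn cells of infection. They bind surface receptors whose kinases activate STAT proteins, and with IRF9 these form a complex that binds the interferon-stimulated response element (ISRE) in the promoters of target genes. The target genes encode sensors of foreign RNA, proteins that block viral entry and replication, and regulators that feed back on the pathway. Many carcinoma cells hold a part of this programme at a steady level without added interferon.

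Levels are given as CPM, counts scaled to a common library size with TMM factors, and, where genes are compared with each other, as FPKM, which also divides by transcript length. Changes are given on the log2 scale, each with a standard error (SE), and come from 1 quasi-likelihood fit of the 9 libraries in edgeR. A gene counts as called where its p, adjusted by Benjamini-Hochberg over the 12470 genes tested, was below 0.05. Estimated counts summed to 11185672 to 12779101 per library. All 10 listed markers of squamous epithelium were detected, and their summed level was 6855 to 6905 CPM with CAF exosomes, 5714 to 6544 CPM with hOMF exosomes and 4810 to 6224 CPM in control. Control replicate 3 stood apart. PTPRC, the pan-leukocyte antigen CD45, stood at 7.50 CPM in that library and at no more than 0.0909 CPM in the other 8. IRF8, a transcription factor of leukocytes, was at 7.50 CPM there and at most at 0.0892 CPM elsewhere, and IL3RA was at 2.07 CPM there and at 0 elsewhere. The 6 listed leukocyte markers in the table summed to 39.9 to 46.0 CPM with CAF exosomes, 38.4 to 42.8 CPM with hOMF exosomes and 39.3 to 51.9 CPM in control, with CD68, which carcinoma cells also express, the largest share. Of the plasmacytoid dendritic cell list, 2 of 4 genes were in the table, and they summed to 0.364 to 0.668 CPM in the 8 other libraries and 2.63 CPM in control replicate 3. The 9 fibroblast markers in the table summed to 48.6 to 51.4 CPM with CAF exosomes, 46.2 to 57.3 CPM with hOMF exosomes and 38.1 to 44.0 CPM in control, mostly COL1A1, while COL3A1, DCN, FAP, POSTN and THY1 stayed below 1 CPM. The 3 endothelial markers in the table summed to 17.4 to 19.9 CPM with CAF exosomes, 17.6 to 20.9 CPM with hOMF exosomes and 21.7 to 31.3 CPM in control. The part of these RNAs in the results was not tested.

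The ISRE letters are shown first because most of the promoters that could be searched hold them. The genes were chosen by name as targets of interferon. A high share of these letters therefore comes with the choice and is given as description only. The RefSeq promoter table (build GRCh38.p14) holds 34 of the 43 genes, each as 250 bases before and 50 bases after the start of the gene. A search on both strands for the core of the ISRE, GAAA and GAAA with any 2 bases between them, found at least 1 match in 21 of the 34 (61.8%), against 2.90% of the promoters of 10202 tested genes and 3.65% of all 27305 promoters. Matches may overlap each other. The core letters TTCNNNGAA of the gamma-activated site were in 7 of the 34 (20.6%), against 6.33% of the promoters of tested genes. Of the 10 promoters whose genes were called in at least 1 comparison, 7 held the ISRE core, and of the 24 whose genes were not, 14 did. The 24 include RSAD2 and CMPK2, which held no match and had too few counts to be tested. The promoters of STAT2, TRIM25 and SAMD9L, which were called, held no match in this window. A match describes letters and is not evidence of binding. The stretches below run from 10 bases before the first match to 10 bases after the last, 5′ to 3′ on the strand of the gene, with matched bases in capitals. The first 7 belong to called genes, and ISG15 and MX1 are shown because these classical targets carry the same letters and were not called. They lie at chr10:89392497-89392539 (IFIT1, plus strand), chr11:313990-314053 (IFITM1, plus strand), chr11:320876-320922 (IFITM3, minus strand), chr3:122680800-122680829 (PARP14, plus strand), chr14:94110618-94110660 (IFI27, plus strand), chr1:78649761-78649790 (IFI44, plus strand), chr1:78620274-78620394 (IFI44L, plus strand), chr1:1013374-1013409 (ISG15, plus strand) and chr21:41420559-41420588 (MX1, plus strand).
IFIT1: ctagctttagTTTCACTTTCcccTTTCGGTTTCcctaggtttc
IFITM1: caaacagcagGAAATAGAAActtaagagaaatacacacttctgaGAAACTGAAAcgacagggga
IFITM3: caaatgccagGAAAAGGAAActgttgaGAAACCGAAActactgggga
PARP14: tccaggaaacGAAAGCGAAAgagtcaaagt
IFI27: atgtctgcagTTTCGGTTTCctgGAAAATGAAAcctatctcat
IFI44: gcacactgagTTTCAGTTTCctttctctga
IFI44L: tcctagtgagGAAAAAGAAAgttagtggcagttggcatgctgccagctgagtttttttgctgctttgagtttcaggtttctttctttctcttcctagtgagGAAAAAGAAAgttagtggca
ISG15: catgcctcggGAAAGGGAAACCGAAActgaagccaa
MX1: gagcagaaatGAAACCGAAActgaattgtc

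The genes spanned a wide range of levels. IFITM3, which blocks fusion of viruses with endosomes, was the most abundant per length at 3767 ± 151 FPKM with CAF exosomes, 3112 ± 264 FPKM with hOMF exosomes and 2841 ± 107 FPKM in control (SD, n = 3 each). Its relatives IFITM1 and IFITM2 came next, at 507 ± 15.4 and 352 ± 29.4 FPKM in control, followed by ISG15, a ubiquitin-like modifier, at 156 ± 10.4 FPKM and UBE2L6, its conjugating enzyme, at 74.0 ± 5.62 FPKM. Within the control group these 5 neighbours in the order were separated by more than their SD. Further down some steps were within the spread. TRIM25 at 26.3 ± 1.54 FPKM and its neighbour IRF1 at 25.0 ± 1.09 FPKM, for example, differed by less than the larger SD. At the bottom, CMPK2, a mitochondrial nucleotide kinase, and RSAD2, viperin, had mean levels of at most 0.220 and 0.107 FPKM in any group, and both failed the filter on low counts. The other 41 genes were tested.

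**Figure D1:**
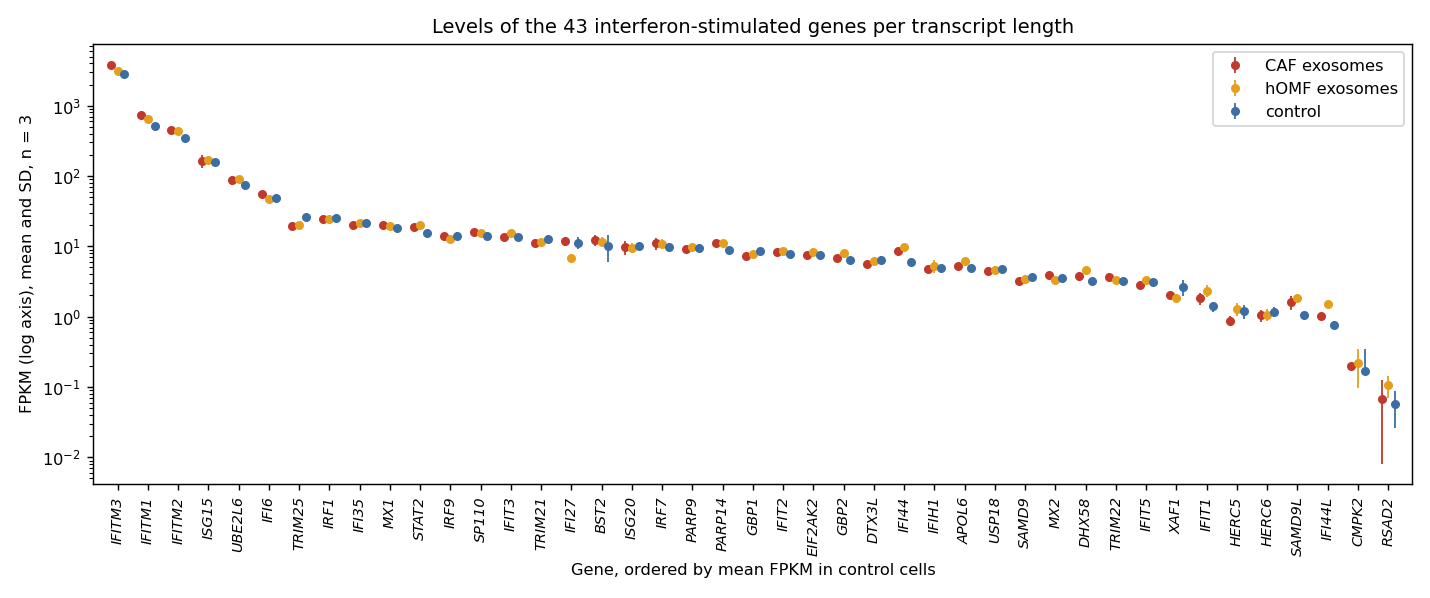
Mean FPKM of the 43 genes in Cal-27 cells given CAF exosomes, given hOMF exosomes or kept as control, on a log axis and ordered by the control mean; bars are the SD over 3 libraries, and the lower bar is left out where the SD exceeds the mean. IFITM3 lies at the top in all 3 groups, and CMPK2 and RSAD2 lie at the bottom.

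With CAF exosomes a small part of the genes changed, in both directions. Of the 41 tested, 7 rose (STAT2, IFITM1, IFITM2, IFITM3, PARP14, SAMD9L and IFI44), 1 fell (TRIM25) and 33 were not called. The 8 calls are 19.5% of the genes tested here, beside 18.2% of all genes tested, and over all genes 9.51% were called higher and 8.64% lower. The median log2 change of the 41 was 0.05, beside -0.005 for all genes, and single values ran between -0.48 and 0.59. All libraries of one group lay above all of the other for 8 genes that were higher and 4 that were lower, beside 18.0% and 18.2% of all genes (36.2% in either direction). In bulk RNA, fewer expressing cells and less RNA per cell cannot be told apart.

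With hOMF exosomes 10 of the 41 rose (STAT2, DHX58, IFIT1, IFITM1, GBP2, PARP14, SAMD9L, IFI44, IFI44L and APOL6), 2 fell (TRIM25 and IFI27) and 29 were not called. These 12 calls are 29.3% of the genes tested here, beside 23.2% of all genes tested, and over all genes 11.8% were called higher and 11.4% lower. The median was 0.05, beside 0.003 for all genes, with a range of -0.81 to 0.72. The groups did not overlap for 12 genes that were higher and 7 that were lower, beside 20.2% and 19.3% of all genes (39.5% in either direction). Both comparisons share the 3 control libraries, and 6 genes were called in both, STAT2, IFITM1, PARP14, SAMD9L, IFI44 and TRIM25.

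**Figure D2:**
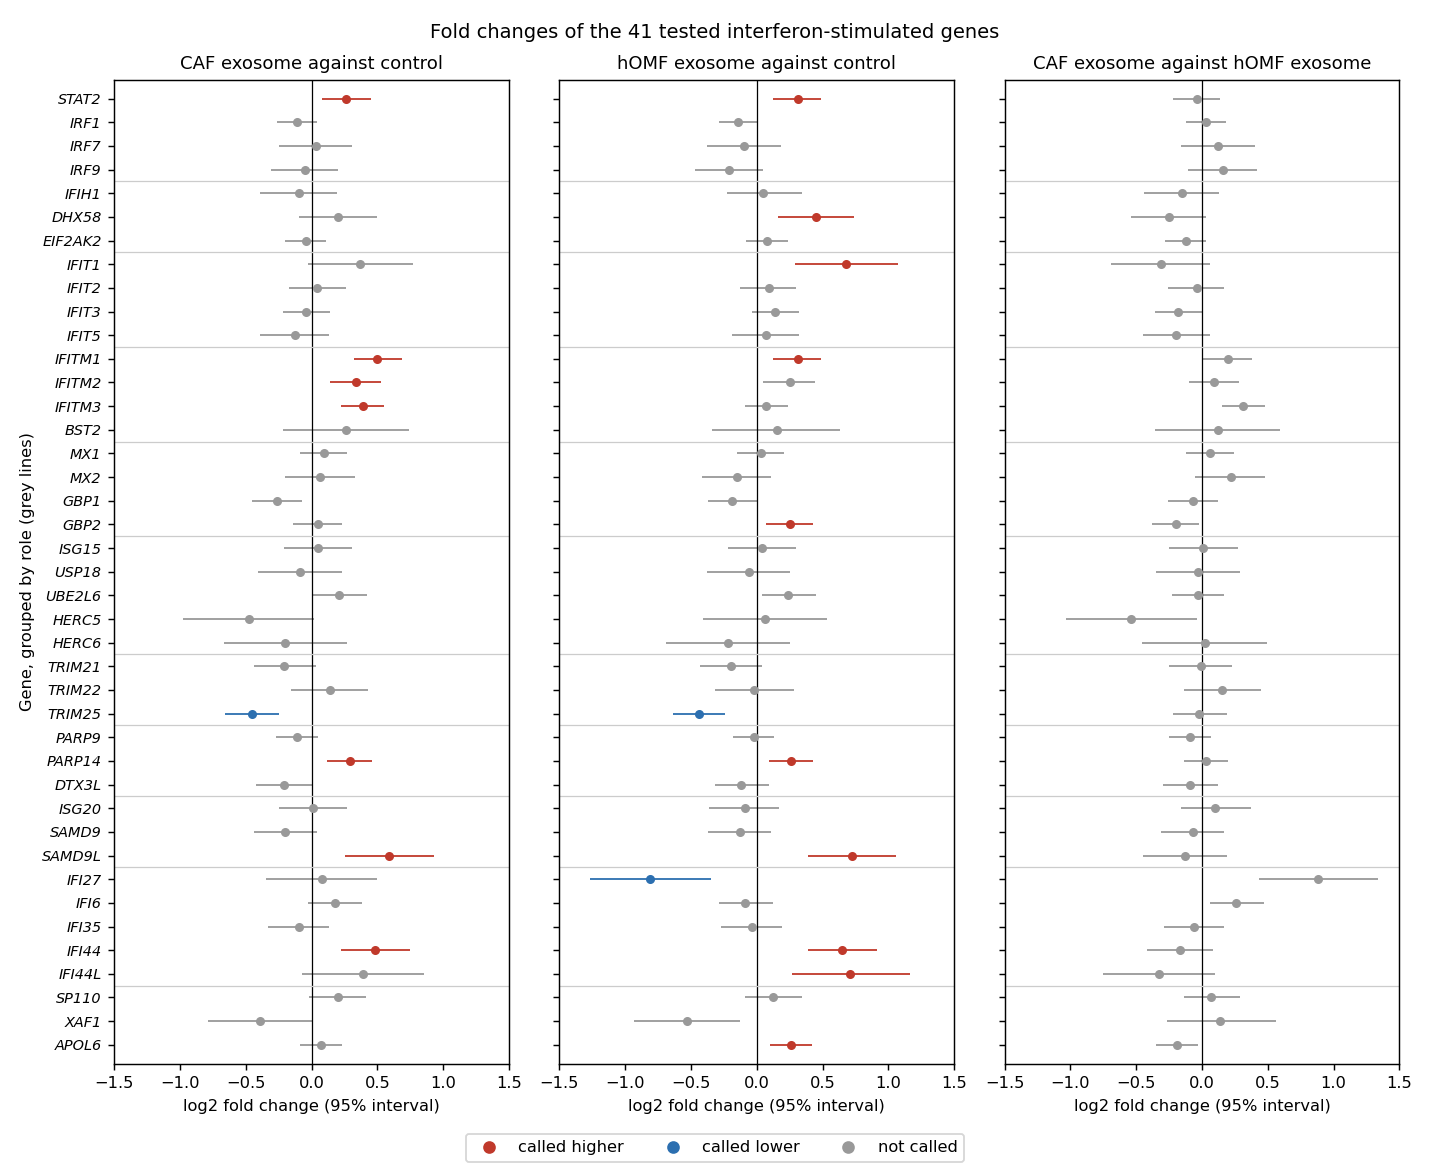
Log2 fold changes with 95% intervals of the 41 tested genes in CAF exosome against control, hOMF exosome against control and CAF exosome against hOMF exosome, grouped by role with called genes in colour. Red points (7 and 10) and blue points (1 and 2) stand among grey ones in the comparisons with control, and all points are grey between the exosome groups.

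The number of calls depended on single libraries. With CAF exosomes the 7 genes that rose became 4 without CAF exosome replicate 1, 3 without control replicate 2 and 2 without control replicate 3, and IFITM1 and IFITM3 were those left in the last case. Without hOMF exosome replicate 1 the genes called lower with CAF exosomes were 2, TRIM25 and GBP1. With hOMF exosomes the 10 became 6 without hOMF exosome replicate 1, 2 without hOMF exosome replicate 2, and 5 without control replicate 2 or control replicate 3, and the 2 that fell became 1 without hOMF exosome replicate 1. Without hOMF exosome replicate 2 the 2 genes that rose were SAMD9L and IFI44. Calls over all genes shrank too in the named settings where fewer of these genes rose. The share with CAF exosomes, 18.2% in the fit of 9 libraries, became 12.6% without CAF exosome replicate 1. It was 11% without control replicate 2 and 11.5% without control replicate 3. The share with hOMF exosomes, 23.2% in the fit of 9 libraries, became 16.4% without hOMF exosome replicate 1. It was 13.5% without hOMF exosome replicate 2, 15.9% without control replicate 2 and 16% without control replicate 3.

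Among the factors that carry the signal, STAT2, a STAT protein of the ISRE-binding complex, was higher with both kinds of exosome. STAT2 stood at 87.9, 74.1 and 80.4 CPM with CAF exosomes, at 80.1, 84.3 and 85.1 CPM with hOMF exosomes and at 73.7, 68.5 and 59.9 CPM in control. All 6 exosome libraries lay above the controls, though CAF exosome replicate 2 lay close to control replicate 1. The log2 change was 0.26 (SE 0.09, adjusted p = 0.0433, edgeR) with CAF exosomes and 0.31 (SE 0.09, adjusted p = 0.0180) with hOMF exosomes. The first call was lost when CAF exosome replicate 1 or 3, control replicate 2 or 3, or hOMF exosome replicate 2 was left out, with limma on FPKM, in the fit of the 6 libraries alone and with a replicate block (0.18 to 0.28, adjusted p up to 0.187). The second was lost without hOMF exosome replicate 2 or control replicate 3 (0.23 to 0.30, adjusted p of 0.0658 to 0.0874). Its partner IRF9 and the regulators IRF1 and IRF7 were not called in any comparison, with log2 changes between -0.21 and 0.16.

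Of the sensors, DHX58, the helicase LGP2 that tunes RNA sensing, rose with hOMF exosomes. It had 8.12, 10.0 and 7.76 CPM with CAF exosomes, 10.9, 10.6 and 9.40 CPM with hOMF exosomes and 7.55, 7.95 and 7.10 CPM in control. The hOMF exosome libraries lay above the controls, and the CAF exosome libraries overlapped both. The log2 change was 0.45 (SE 0.14, adjusted p = 0.0261) with hOMF exosomes and 0.20 (SE 0.14, adjusted p = 0.337) with CAF exosomes. The call was lost with DESeq2 and without control replicate 1 or 3 or hOMF exosome replicate 1 or 2 (0.41 to 0.45, adjusted p up to 0.0845). IFIH1, the RNA sensor MDA5, and EIF2AK2, the RNA-activated kinase PKR, were not called, with changes from control between -0.10 and 0.08.

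The IFIT genes encode proteins that bind viral RNA and lie next to each other on chromosome 10. IFIT1 stood at 7.22, 6.04 and 9.01 CPM with CAF exosomes, at 8.07, 11.2 and 8.48 CPM with hOMF exosomes and at 6.55, 6.05 and 4.71 CPM in control. It was higher with hOMF exosomes by 0.68 (SE 0.18, adjusted p = 0.0142), while the change with CAF exosomes was 0.37 (SE 0.19, adjusted p = 0.185) with overlapping libraries. The call was lost without hOMF exosome replicate 2 or control replicate 3 (0.53 and 0.55, adjusted p up to 0.0874). IFIT2, IFIT3 and IFIT5 were not called and lay within -0.13 and 0.14 of control.

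The IFITM genes, a cluster on chromosome 11 for short membrane proteins that hinder viral entry, gave the highest levels per length, and all 3 of those listed rose with CAF exosomes. IFITM1 had 278.5, 293 and 297 CPM with CAF exosomes, 285, 258 and 215 CPM with hOMF exosomes and 210.4, 198 and 204 CPM in control. The controls were the lowest, and the hOMF exosome libraries overlapped those with CAF exosomes. The log2 change was 0.50 (SE 0.09, adjusted p = 0.00135) with CAF exosomes and 0.31 (SE 0.09, adjusted p = 0.0194) with hOMF exosomes. The call with CAF exosomes held in all 18 alternatives, and that with hOMF exosomes was lost without control replicate 2 or hOMF exosome replicate 1 or 2 (0.21 to 0.29, adjusted p up to 0.104).

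IFITM3 was at 1236, 1250.3 and 1354 CPM with CAF exosomes, at 1131, 1028 and 934 CPM with hOMF exosomes and at 1023, 954 and 959.8 CPM in control. Here the CAF exosome libraries stood above all others, and the remaining groups overlapped. It rose by 0.39 (SE 0.08, adjusted p = 0.00348) with CAF exosomes, a call kept in all 18 alternatives, and changed by 0.07 (SE 0.08, adjusted p = 0.522) with hOMF exosomes. IFITM2 was found at 200.3, 208 and 212 CPM with CAF exosomes, 222, 193 and 169 CPM with hOMF exosomes and 178, 151 and 162 CPM in control. Its libraries separated from control with CAF exosomes and overlapped with hOMF exosomes. The change was 0.34 (SE 0.09, adjusted p = 0.0190) with CAF exosomes and 0.25 (SE 0.09, adjusted p = 0.0603) with hOMF exosomes. The first was lost without control replicate 2 or 3 or the CAF exosome library of replicate 3 (0.28 to 0.33, adjusted p up to 0.0925), while the second was called in 7 of the 18 alternatives, among them library totals without TMM factors and DESeq2. Estimated counts of IFITM2 and IFITM3 were not whole in 8 of the 9 libraries, so reads were shared with similar genes, and annotated exons of IFITM1 and IFITM2 overlap on the same strand. Values of these genes are therefore uncertain. Counts were also not whole for MX1 and IRF1 in 9 libraries, for IFIT3 in 6, and for EIF2AK2, SP110 and XAF1 in 5. BST2, tetherin, which holds budding viruses at the cell surface, was not called. Its controls stood at 4.82, 6.78 and 10.8 CPM and spanned the range of the exosome libraries, 6.88 to 10.3 CPM.

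**Figure D3:**
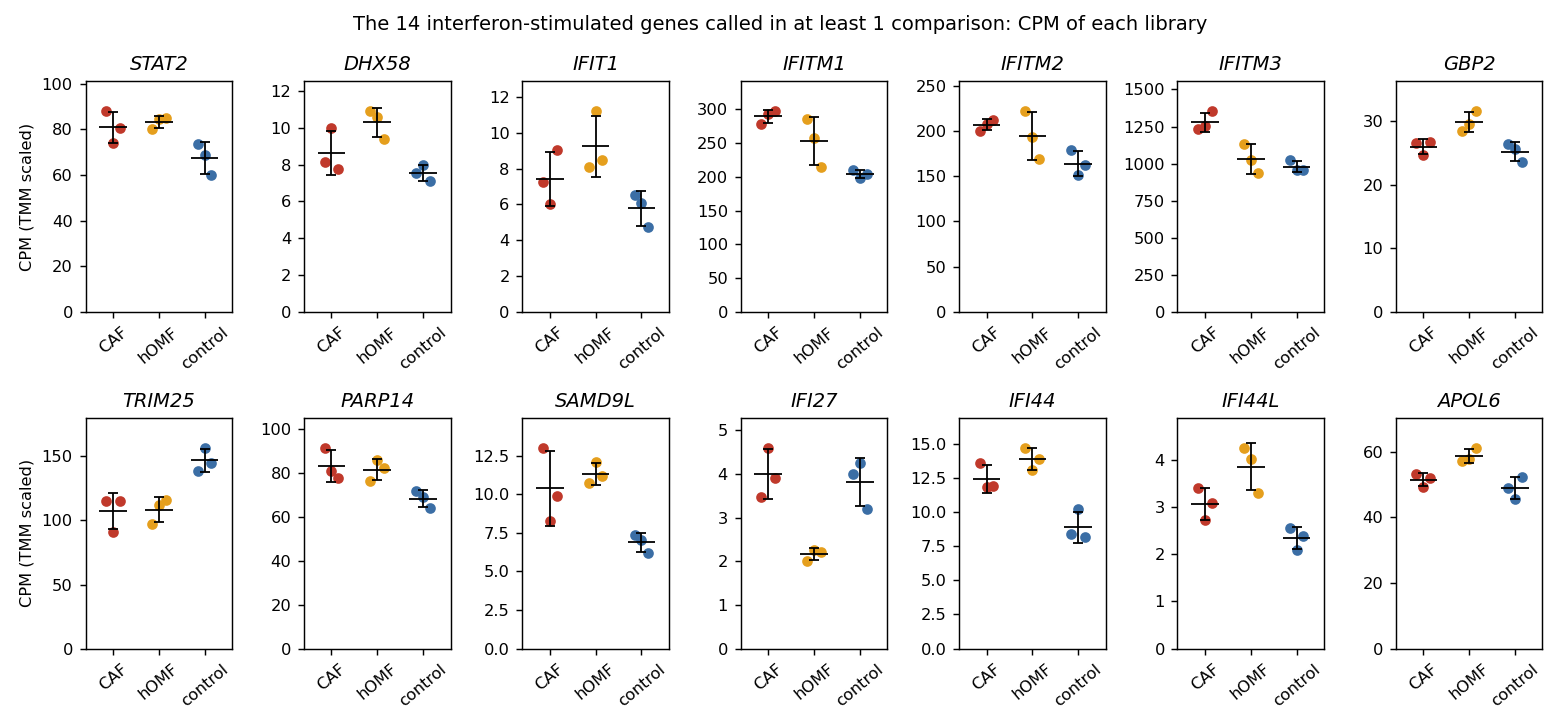
CPM of each library for the 14 genes called in at least 1 comparison, in Cal-27 cells given CAF exosomes, given hOMF exosomes or kept as control; lines and bars are the mean and SD of 3 libraries and every axis starts at 0. IFITM3 is highest with CAF exosomes, IFI27 is lowest with hOMF exosomes, and TRIM25 is highest in control.

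Of the large GTPases, GBP2, a guanylate-binding protein that coats intracellular pathogens, rose with hOMF exosomes. It was at 26.6, 24.7 and 26.8 CPM with CAF exosomes, 28.5, 29.6 and 31.6 CPM with hOMF exosomes and 26.4, 25.7 and 23.6 CPM in control. The change was 0.25 (SE 0.09, adjusted p = 0.0440) with hOMF exosomes and 0.05 (SE 0.09, adjusted p = 0.742) with CAF exosomes. The call was lost in 9 of 18 alternatives, which were DESeq2, the replicate block, the fit of 6 libraries, and leaving out each hOMF exosome library in turn, CAF exosome replicate 3, or control replicate 2 or 3 (0.20 to 0.28, adjusted p up to 0.158). GBP1, a relative of GBP2, was lower in every exosome library, at 18.9, 19.7 and 19.2 CPM with CAF exosomes and 18.5, 21.0 and 21.2 CPM with hOMF exosomes, against 23.4, 23.1 and 22.7 CPM in control. It missed the threshold, with -0.26 (SE 0.09, adjusted p = 0.0526) and -0.19 (SE 0.09, adjusted p = 0.135), while 2 of the 18 alternatives called the first. MX1 and MX2, dynamin-like GTPases that block viral replication, were not called in any comparison, and MX1 changed by 0.09 (95% interval -0.09 to 0.27) with CAF exosomes and 0.03 (-0.15 to 0.21) with hOMF exosomes.

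None of the 5 genes of ISG15 conjugation was called by edgeR in any comparison, and 1 had an unadjusted p under 0.05 in each. Of all 12470 genes, 4094 had such a p with CAF exosomes, 4575 with hOMF exosomes and 947 between the exosome groups. ISG15 was at 46.7, 71.8 and 60.7 CPM with CAF exosomes, 64.9, 60.5 and 52.7 CPM with hOMF exosomes and 53.6, 61.2 and 58.5 CPM in control. These ranges overlapped fully, and the intervals of its change, -0.21 to 0.31 and -0.22 to 0.30, leave out a change by a log2 unit. UBE2L6 changed by 0.21 (SE 0.10, adjusted p = 0.131) with CAF exosomes and 0.24 (SE 0.10, adjusted p = 0.0761) with hOMF exosomes, and 1 and 5 of the 18 alternatives called it higher. USP18, the protease that removes ISG15, and the ligases HERC5 and HERC6 were at 2.41 to 8.50 CPM in all libraries.

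TRIM25, the ubiquitin ligase that acts on the RNA sensor RIG-I, fell with both kinds of exosome. It had 115.1, 91.0 and 115.4 CPM with CAF exosomes, 97.1, 112 and 116 CPM with hOMF exosomes and 139, 157 and 145 CPM in control. Every control library lay above every exosome library. The change was -0.45 (SE 0.10, adjusted p = 0.00454) with CAF exosomes and -0.44 (SE 0.09, adjusted p = 0.00416) with hOMF exosomes, and both calls held in all 18 alternatives, with the changes between -0.51 and -0.34. Exons of C17orf67 on the same strand and DGKE on the opposite strand overlap those of TRIM25, and no source used here gives the strand setting behind the counts. TRIM21, a cytosolic antibody receptor and ubiquitin ligase, and TRIM22 were not called, and TRIM21 stood at -0.21 (SE 0.11, adjusted p = 0.213) with CAF exosomes and -0.20 (SE 0.11, adjusted p = 0.213) with hOMF exosomes.

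PARP14, an ADP-ribosyltransferase, rose, while its neighbours on chromosome 3, PARP9 and its ubiquitin ligase partner DTX3L, were not called under any alternative. PARP14 was found at 91.3, 80.6 and 77.6 CPM with CAF exosomes, 76.2, 85.8 and 82.2 CPM with hOMF exosomes and 71.5, 69.1 and 63.9 CPM in control. All exosome libraries lay above the controls. The change was 0.29 (SE 0.08, adjusted p = 0.0223) with CAF exosomes and 0.26 (SE 0.08, adjusted p = 0.0315) with hOMF exosomes. The first call was lost without control replicate 2 or 3 or the CAF exosome library of replicate 1 (0.22 to 0.30, adjusted p up to 0.0970), and the second without control replicate 2 or 3 or hOMF exosome replicate 2 or 3 (0.21 to 0.27, adjusted p up to 0.135). PARP9 and DTX3L changed by -0.11 (SE 0.07) and -0.21 (SE 0.10) with CAF exosomes and by -0.02 (SE 0.07) and -0.12 (SE 0.10) with hOMF exosomes. Exons of these neighbours overlap on opposite strands. The difference between genes was not tested.

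A like split was seen in the SAMD9 pair on chromosome 7, whose proteins restrict poxviruses. SAMD9L was at 13.0, 8.26 and 9.85 CPM with CAF exosomes, 10.7, 12.1 and 11.2 CPM with hOMF exosomes and 7.36, 7.05 and 6.22 CPM in control. Each exosome library was above each control. It rose by 0.59 (SE 0.16, adjusted p = 0.0187) with CAF exosomes and by 0.72 (SE 0.16, adjusted p = 0.00443) with hOMF exosomes. The call with hOMF exosomes held in all 18 alternatives, and that with CAF exosomes was lost with limma on FPKM at either pseudocount and without control replicate 2 or 3 or the CAF exosome library of replicate 1 (0.34 to 0.61, adjusted p up to 0.0966). SAMD9 was not called under any alternative, with -0.20 (SE 0.11) and -0.13 (SE 0.11). ISG20, an RNA exonuclease, was not called either, and the untested RSAD2 and CMPK2 stayed at or below 0.459 and 1.04 CPM in every library.

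Among the 5 genes named IFI in the chosen set of 43, the neighbours IFI44 and IFI44L on chromosome 1 were the ones that rose. IFI44 had 13.6, 11.8 and 11.9 CPM with CAF exosomes, 14.7, 13.1 and 13.9 CPM with hOMF exosomes and 8.36, 10.2 and 8.14 CPM in control. The groups with exosomes did not overlap control. The change was 0.48 (SE 0.12, adjusted p = 0.0151) with CAF exosomes, lost without control replicate 3 or the CAF exosome library of replicate 1 (0.41 and 0.42, adjusted p up to 0.0626), and 0.65 (SE 0.12, adjusted p = 0.00164) with hOMF exosomes, which held in all 18 alternatives. IFI44L was found at 3.39, 2.72 and 3.09 CPM with CAF exosomes, 4.25, 4.02 and 3.29 CPM with hOMF exosomes and 2.55, 2.08 and 2.39 CPM in control. Again no exosome library fell among the controls. It rose by 0.71 (SE 0.21, adjusted p = 0.0233) with hOMF exosomes, and the change with CAF exosomes was 0.39 (SE 0.22, adjusted p = 0.229). The call was lost with DESeq2 and without control replicate 2 or hOMF exosome replicate 1 or 2 (0.64 to 0.71, adjusted p up to 0.0903).

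IFI27, a small mitochondrial protein gene of the same group, went the other way with hOMF exosomes. It was at 3.48, 4.6 and 3.92 CPM with CAF exosomes, 2.00, 2.27 and 2.22 CPM with hOMF exosomes and 4.0, 4.25 and 3.19 CPM in control. The hOMF exosome libraries were the lowest of the 9, and the other groups overlapped. The log2 change was -0.81 (SE 0.22, adjusted p = 0.0135) with hOMF exosomes and 0.08 (SE 0.20, adjusted p = 0.826) with CAF exosomes. The call was lost without hOMF exosome replicate 1 or control replicate 2 (-0.76 to -0.72, adjusted p up to 0.0565). IFI6 and IFI35 were not called in any comparison.

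Of the remaining genes, APOL6, an apolipoprotein L relative linked to cell death, rose with hOMF exosomes. APOL6 was found at 53.3, 49.3 and 51.9 CPM with CAF exosomes, 57.3, 57.7 and 61.2 CPM with hOMF exosomes and 49.0, 45.7 and 52.3 CPM in control. The hOMF exosome libraries were the highest of the 9. The change was 0.26 (SE 0.08, adjusted p = 0.0207) with hOMF exosomes, lost without control replicate 2 or hOMF exosome replicate 2 or 3 (0.21 to 0.27, adjusted p up to 0.104), and 0.07 (SE 0.08, adjusted p = 0.555) with CAF exosomes. SP110, a nuclear body protein gene, was not called. XAF1, a pro-apoptotic gene, was not called, at -0.39 (SE 0.19, adjusted p = 0.163) and -0.53 (SE 0.19, adjusted p = 0.0539). Control replicate 3, the library with PTPRC reads, held 10.0 CPM of XAF1, against 6.91 and 6.14 CPM in the other controls, and without control replicate 2 the gene was called lower with hOMF exosomes.

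**Figure D4:**
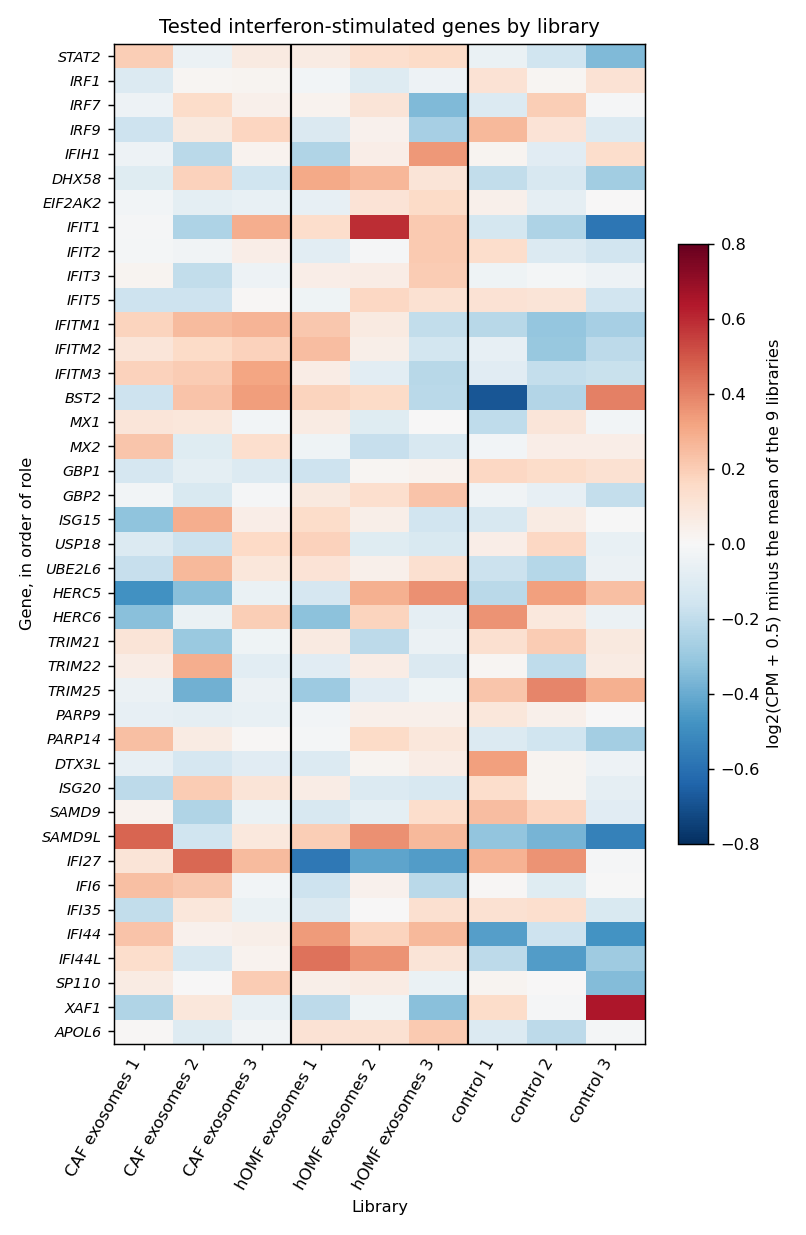
Log2(CPM + 0.5) of the 41 tested genes in each of the 9 libraries minus the mean of the libraries, red above and blue below, in order of role. IFI44, IFI44L and SAMD9L are blue in the 3 control libraries, IFI27 is blue in the 3 hOMF exosome libraries, and most other genes show no block by group.

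Set directly against each other, CAF and hOMF exosomes gave no called difference. Of the 41 genes, 0 were called by edgeR, beside 0.016% of all genes (2 of 12470, 0.00802% in each direction). An unadjusted p under 0.05 was found for 8 of the 41, beside 947 of all 12470 genes. DESeq2 called 1, IFITM3, beside 0.289% of all genes (36 of 12470, 28 higher and 8 lower). The groups did not overlap for 2 genes that were higher and 4 that were lower with CAF exosomes, beside 7.15% and 6.59% of all genes. The clearest values were those of IFI27, at 0.88 (95% interval 0.43 to 1.34, adjusted p = 0.276), and IFITM3, at 0.31 (0.15 to 0.48, adjusted p = 0.282), whose CAF exosome libraries all lay above the hOMF exosome libraries. IFI6 stood at 0.26 (0.06 to 0.47) and IFITM1 at 0.20 (0.01 to 0.38). On the other side were HERC5 at -0.54 (-1.03 to -0.04), GBP2 at -0.20 (-0.38 to -0.02), APOL6 at -0.19 (-0.35 to -0.03) and IFIT3 at -0.18 (-0.36 to 0.00). These 8 are the genes with an unadjusted p under 0.05, picked out after the values were seen. The interval stayed within 1 log2 unit either way for 39 of the 41 genes and within 0.5 for 34, so larger differences between the exosome groups are left out for these, while smaller ones are not. A call with one kind of exosome and not with the other is therefore no shown difference between them.

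The other genes of the pathway were as mixed. Of 10 listed interferon genes, 4 were in the table, and IFNB1, IFNL1 and IFNL2 had group means of at most 0.0533 FPKM. IFNE, the interferon of epithelia, was the 1 that could be tested, at 2.85, 2.21 and 2.75 CPM with CAF exosomes, 1.39, 2.45 and 2.6 CPM with hOMF exosomes and 1.73, 1.36 and 1.36 CPM in control. Its change was 0.82 (SE 0.28, adjusted p = 0.0566) with CAF exosomes and 0.54 (SE 0.29, adjusted p = 0.187) with hOMF exosomes, and 5 of 18 alternatives called the first. Of 17 tested receptors, kinases and transcription factors, 2 rose with CAF exosomes (11.8%, beside 18.2% of all genes called) and 1 with hOMF exosomes (5.88%, beside 23.2%), and none fell. IL10RB, a receptor chain shared by lambda interferons and interleukin-10, rose by 0.28 (SE 0.07, adjusted p = 0.0145) and 0.28 (SE 0.07, adjusted p = 0.0122), both lost without control replicate 3 (0.22 and 0.21, adjusted p = 0.0728 and 0.0650). IFNGR1, a receptor chain for interferon gamma, was called with CAF exosomes alone, at 0.23 (SE 0.08, adjusted p = 0.0429), which was lost with a replicate block and on leaving out each CAF exosome library, hOMF exosome replicate 2, control replicate 2 or control replicate 3 (0.19 to 0.27, adjusted p up to 0.156).

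Of 12 inhibitors of the pathway, 1 rose and 1 fell with CAF exosomes (16.7% called, beside 18.2% of all genes), and 2 rose and 1 fell with hOMF exosomes (25.0% called, beside 23.2%). PIAS3, an inhibitor of STAT proteins, rose by 0.23 (SE 0.07, adjusted p = 0.0385) with CAF exosomes and 0.22 (SE 0.07, adjusted p = 0.0402) with hOMF exosomes. PTPN2, a phosphatase that acts on JAK and STAT proteins, rose by 0.22 (SE 0.07, adjusted p = 0.0366) with hOMF exosomes. PTPN11, the phosphatase SHP2, fell with both, at -0.29 (SE 0.09, adjusted p = 0.0321) and -0.26 (SE 0.09, adjusted p = 0.0387). These 5 calls were lost under 4 to 10 of the 18 alternatives each (0.18 to 0.27 for those that rose, -0.31 to -0.18 for PTPN11, adjusted p up to 0.168), all of them without control replicate 3 and without hOMF exosome replicate 2. Of 12 tested genes of nucleic acid sensing, 1 fell in each comparison with control (8.33%). CGAS, the DNA sensor, fell with CAF exosomes by 0.29 on the log2 scale (SE 0.08, adjusted p = 0.0264), a call lost with DESeq2 and on leaving out each CAF exosome library in turn, control replicate 2 or control replicate 3 (-0.30 to -0.26, adjusted p up to 0.0997). TICAM1, the adaptor TRIF of Toll-like receptor 3, fell with hOMF exosomes by 0.42 (SE 0.08, adjusted p = 0.00176).

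Of 48 further interferon-stimulated genes that were tested, 6 rose and 3 fell with CAF exosomes (18.8% called, beside 18.2% of all genes) and 6 rose and 4 fell with hOMF exosomes (20.8% called, beside 23.2% of all genes), with medians of 0.01 in each. These shares are near those of all genes. CXCL11, a chemokine that attracts T cells, rose by 0.59 (SE 0.14, adjusted p = 0.00848) and 0.70 (SE 0.14, adjusted p = 0.00200). CASP1, the inflammatory caspase, rose by 0.31 (SE 0.07, adjusted p = 0.00855) and 0.35 (SE 0.07, adjusted p = 0.00311). TNFSF10, which encodes the death ligand TRAIL, rose by 0.46 (SE 0.10, adjusted p = 0.00551) with CAF exosomes and 0.39 (SE 0.10, adjusted p = 0.0109) with hOMF exosomes, the second lost without control replicate 3 (0.30, adjusted p = 0.0570). PLSCR1, a phospholipid scramblase, fell with CAF exosomes, at -0.33 (SE 0.07, adjusted p = 0.00480), and PARP12 and ZNFX1 fell with hOMF exosomes, at -0.45 (SE 0.07, adjusted p = 0.000548) and -0.52 (SE 0.10, adjusted p = 0.00133). Apart from that of TNFSF10 with hOMF exosomes, the calls named here for these 6 genes and the call of TICAM1 held in all 18 alternatives.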

How the data were processed

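Per the labels' protocols, poly(A) RNA was made into dUTP-marked libraries and sequenced as paired reads on an Illumina NovaSeq. The submitters' processing notes name Bowtie2 2.2.5 and RSEM 1.2.8 and a mouse build, although the table holds human symbols and gene identifiers. The build of the counts is therefore uncertain, and all coordinates in the text come from RefSeq or GENCODE annotations on GRCh38. The authors deposited expected counts, which share reads between similar genes, FPKM (scaled by length and depth) and TPM (not used here). Every value column belonged to a sample.

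Before testing, the deposited expected counts were rounded to whole numbers. Between 90.5% and 92.0% of values in a library were whole to within 0.001. Genes passing filterByExpr (minimum count 10, minimum total 15) were scaled by TMM and fitted with edgeR 4.0.16 (glmQLFit, glmQLFTest, two-sided, group as the only term, 6 residual degrees of freedom). SE is the size of the log2 fold change over the square root of F. Other software was DESeq2 1.42.0, limma 3.58.1, R 4.3.3, matplotlib 3.10.9 and python 3.11.15, and the fit was tested on simulated counts. Alternatives were other scalings (library totals, DESeq2 size factors, and 1 added after seeing the data, upper quartile), DESeq2, limma on log2(FPKM + 1) and log2(FPKM + 0.1) for genes with a group mean of at least 1 FPKM, no filter, a replicate block, 2 groups at a time and each library left out. The members, lists and rules were chosen with earlier results of these data known. Genes called in at least 1 comparison are given in full, up to 3 others per role by level, and up to 4 called pathway genes per list and comparison by p. Pathway genes that this rule does not name are given by their counts, and some results are not reported here.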

Additional observations from a re-analysis of the deposited data

How the results depend on the processing

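Of the 123 pairs of gene and comparison, 20 were called; 6 of these calls held under all 18 alternatives, 14 were lost under at least 1, and no called direction reversed. Of the 103 uncalled pairs, 6 were called under at least 1 alternative. For CAF exosomes against control, leaving out 1 library gave 2 to 7 genes higher and 1 to 2 lower with a median of 0.00 to 0.06, and for hOMF exosomes against control 2 to 11 higher, 1 to 2 lower and 0.00 to 0.06. For CAF against hOMF exosomes it gave 0 and 0 with a median of -0.08 to 0.01. Over all genes, leaving out 1 library gave 10.7% to 19% called with CAF exosomes and 13.5% to 24.7% with hOMF exosomes. Between the exosome groups the share was at most 0.0638%. With DESeq2 size factors 2 genes were called lower with CAF exosomes, the second being GBP1, beside 1112 of all 12470 genes. With the DESeq2 test 1 was higher between the exosome groups, beside 28 of all 12470 genes. Without TMM factors the medians were 0.07 with CAF exosomes, 0.10 with hOMF exosomes and -0.05 between them, with upper quartile factors 0.07 and 0.08 against control, with limma on log2(FPKM + 1) 0.09 with hOMF exosomes and -0.05 between exosome groups, and with a pseudocount of 0.1 they were 0.07, 0.10 and -0.06. The spread of the median between replicates was 0.025. The cause of these shifts was not tested. No scaling moved the median of all genes by more than 0.1, but it moved in the same direction. TMM gave -0.005 with CAF exosomes and 0.003 with hOMF exosomes, and without TMM factors it was 0.021 and 0.056. With limma on log2(FPKM + 1) it was 0.043 with hOMF exosomes. Without TMM factors the calls over all genes were 1425 higher and 832 lower with CAF exosomes and 2006 and 989 with hOMF exosomes. With TMM they were 1186 and 1078 and then 1475 and 1421. Replicate numbers recur in the groups, but equal numbers did not deviate together in every pair (correlations over genes of -0.12 to 0.12), nor did every library correlate best with its own number, so they were not read as pairs. The fit with a replicate block called 6 genes higher and 1 lower with CAF exosomes, 9 higher and 2 lower with hOMF exosomes and 0 between them, with medians of 0.04, 0.04 and -0.02. Over all genes that fit called 16.8%, 21.8% and 0.016%. The widest interval between exosome groups, 0.49 either way, was that of HERC5, at 2.41 to 4.74 CPM. That of BST2, at 4.82 to 10.8 CPM, was nearly as wide (-0.36 to 0.59). What sets these widths was not tested.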
